A study of Homo sapiens with 2 samples.

Results

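Long intergenic noncoding RNAs (lincRNAs) are transcripts that lie between protein-coding genes and carry no long reading frame. The expressed lincRNAs of MDA-MB-231 cells were selected on measured values, as genes that GENCODE release 29 types as lincRNA, off chromosomes X and Y, with a mean of 1 FPKM or more over both libraries. FPKM is the sequenced fragments of a transcript scaled by its length and by the size of the library, and a gene's value was the sum over its reference transcripts, those with an Ensembl identifier. The rule found 175 genes of the 7136 lincRNA genes listed, of which 1875 were above 0 FPKM in at least 1 library, and 5 further genes on chromosomes X and Y were left out. Just inside the threshold stood AC092168.1, at 2.01 FPKM in the RBMS1-depleted library and 0 in the control (mean 1.01), and just outside it OSER1-DT, at 0.99 in both (mean 0.992).

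The study asked what RBMS1, an RNA-binding protein, controls in triple-negative breast cancer. Total RNA was sequenced from 2 libraries of MDA-MB-231, an established line of that disease grown in L15 medium with serum and without carbon dioxide. The RBMS1-depleted library came from cells with a stable short-hairpin knockdown of RBMS1, and the control library from cells carrying the empty pLKO.1 vector. Both lines had been through lentiviral infection and puromycin selection. Each group held a single library, so there was no replicate check, and neither a p-value nor a spread between cultures could be given. Each difference below compares those libraries and not the conditions. A hairpin's effects on other transcripts cannot be told apart from those of RBMS1 loss here.

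RBMS1 itself was at 3.76 FPKM in the RBMS1-depleted library and 24.1 FPKM in the control, a log2 ratio of -2.40 on the log2(FPKM + 1) scale that is used for every ratio unless another is named. The mesenchymal genes VIM, CD44, AXL and CAV1 stood between 112 and 563 FPKM in both libraries. ESR1, PGR and CDH1 were below 0.1 FPKM, ERBB2 was at 7.496 and 7.005 FPKM, and EPCAM was at 1.93 and 3.66 FPKM. Markers of leukocytes (PTPRC), endothelium (PECAM1) and fibroblasts (COL1A1) reached at most 0.409 FPKM. The files gave FPKM without read counts, so the depth was unknown. The median coverage per FPKM, a relative measure of it, was 12.3 in the RBMS1-depleted library and 11.3 in the control. In bulk RNA, fewer cells that express a gene and less of its RNA per cell cannot be told apart.

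LincRNAs act in several ways. Some are working parts of enzymes, such as TERC in telomerase and RMRP in the ribonuclease that trims ribosomal RNA precursors. Some hold proteins in place, such as NEAT1, which builds the nuclear bodies called paraspeckles, and NORAD, which binds Pumilio proteins. Others are hosts whose introns or exons are cut into small nucleolar RNAs (snoRNAs) or microRNAs (miRNAs), while the rest of the transcript is often degraded.

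Short stretches of 3 of these RNAs show the features that give them their roles. The TERC stretch holds the template that telomerase copies into telomere repeats, in capitals. It lies on the minus strand at chr3:169764996-169765025, bases 36 to 65 of the transcript.

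TERC: cattttttgtCTAACCCTAACtgagaaggg

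The NORAD transcript held 15 copies of the Pumilio recognition letters TGTANATA, counted on the transcript strand, and 1 of 9458 expressed protein-coding transcripts held as many or more. These letters occurred in 11 of the 175 lincRNA transcripts (6.29%) and in 29.1% of the longer protein-coding ones. The first 3 copies in NORAD, in capitals, lie on the minus strand of chromosome 20 at chr20:36050185-36050208, chr20:36049806-36049829 and chr20:36049705-36049728.

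NORAD element 1: aaggcctgTGTATATAatatgaaa

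NORAD element 2: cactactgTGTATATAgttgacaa

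NORAD element 3: tcacatttTGTAAATAcctttttg

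The MALAT1 stretch, on the plus strand at chr11:65506102-65506131, shows where the transcript is cut to release a tRNA-like small RNA, whose first 8 bases are in capitals.

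MALAT1: aaaaaaaaagcaaaaGATGCTGGtggttgg

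Mature miRNAs lie within the bodies of 8 members. Mature miRNAs of 5 of these hosts are shown 5′ to 3′, among them the lowest ratio (MIR22HG), the highest (LINC-PINT) and the nearest to 0 (MIR4458HG). For LINC-PINT only miR-29b-3p is shown, and miR-29b-1-5p is left out. The seed, bases 2 to 8, is in capitals, since the seed chooses the target messages. RefSeq (GRCh38.p14) held entries for 8 of the 9 hosted miRNA genes.

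miR-22-3p, in MIR22HG: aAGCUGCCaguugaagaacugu

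miR-22-5p, in MIR22HG: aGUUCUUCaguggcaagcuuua

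miR-4435, in CYTOR and in MIR4435-2HG: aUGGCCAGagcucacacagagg

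miR-4458, in MIR4458HG: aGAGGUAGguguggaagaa

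miR-29b-3p, in LINC-PINT: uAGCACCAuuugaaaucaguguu

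The seed of miR-4458 is that of the let-7 family, and 11 mature miRNAs of the RefSeq table share it. The seeds of miR-22-3p and miR-4435 occurred in no other mature miRNA of that table.

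Most expressed lincRNAs were at low levels that were alike in both libraries. The median level over the 175 genes was 2.34 FPKM in the RBMS1-depleted library and 2.24 FPKM in the control, and 22 genes had a mean of 10 FPKM or more. The median log2 ratio was 0.03, with quartiles of -0.25 and 0.47. Over 9458 protein-coding genes with a mean of 1 FPKM or more the median was 0.03, with quartiles of -0.21 and 0.26. A log2 ratio within 1.5-fold of 0 was found for 116 lincRNAs (66.3%), against 80.1% of the protein-coding genes.

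At least 2-fold lower or higher stood 32 of the 175 lincRNAs (18.3%), against 10.2% of all 10411 genes with a mean of 1 FPKM or more. Lower were 9 (5.14%, against 4.89% of all genes) and higher were 23 (13.1%, against 5.33%). Of the 32, however, 23 were listed at 0 FPKM in 1 library, 8 of them in the RBMS1-depleted library and 15 in the control. The rule itself forces these 23 past 2-fold, because a gene at 0 in 1 library reaches a mean of 1 only with 2 FPKM or more in the other, a log2 ratio of at least 1.58. Among genes above 0 in both libraries, 9 of 152 lincRNAs (5.92%) stood past 2-fold, against 5.67% of all such genes and 5.79% of the protein-coding ones. The share of genes listed at 0 in 1 library was 13.1% for lincRNAs, 4.82% for all genes, 3.87% for protein-coding genes and 11.2% for antisense genes.

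**Figure D1:**
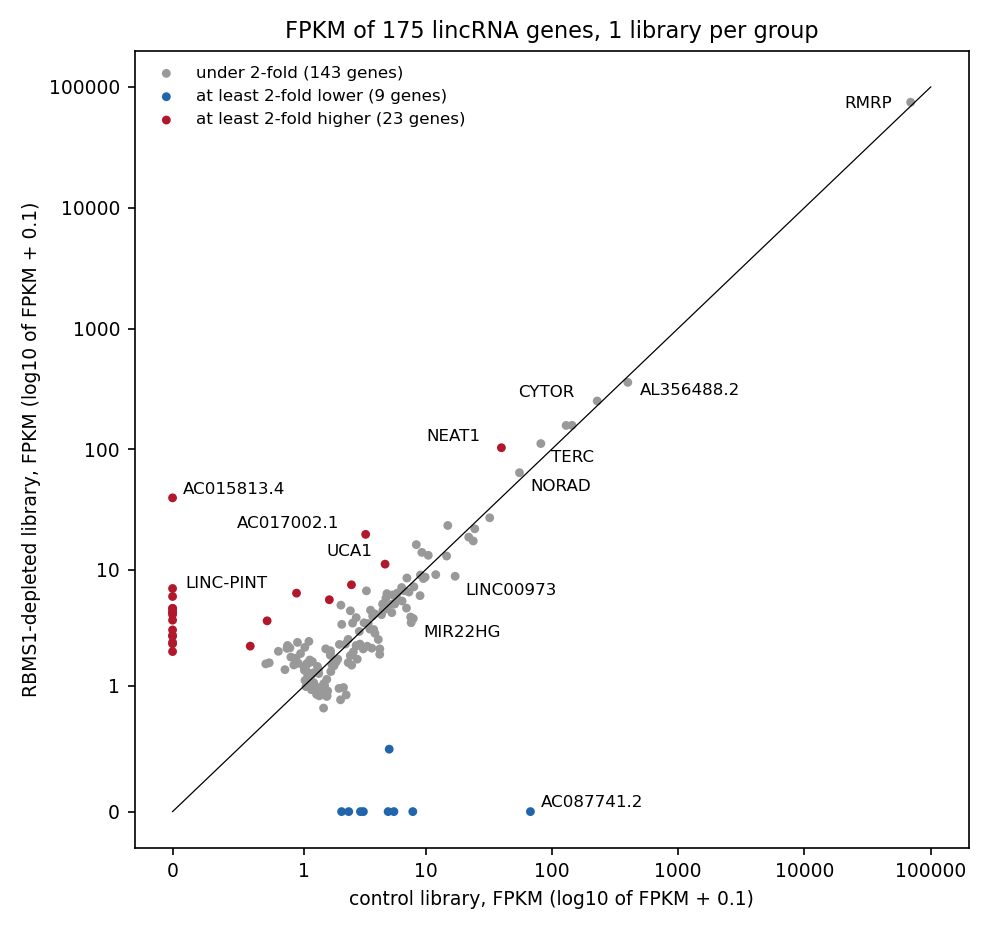
FPKM of the 175 expressed lincRNA genes in the control library (horizontal) and the RBMS1-depleted library (vertical), both on a log10 scale after adding 0.1, with 1 point per gene and the line of equal values. Most points lie along the line, and 23 of the 32 genes past 2-fold sit on an axis because they are listed at 0 in 1 library.

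**Figure D2:**
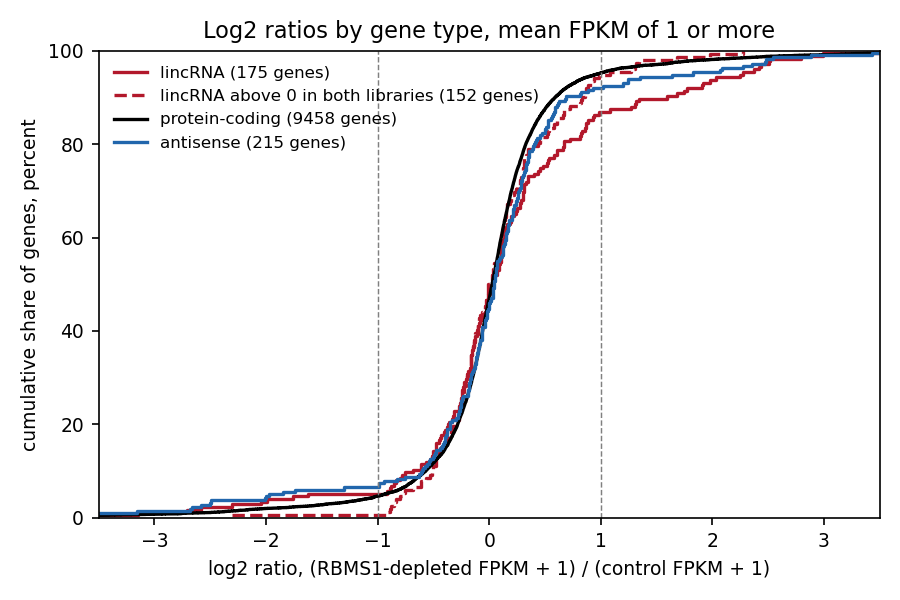
Cumulative share of genes (percent) against the log2 ratio of RBMS1-depleted to control FPKM, each plus 1, for genes with a mean of 1 FPKM or more, with dashed lines at 2-fold. Past 2-fold higher lie 13.1% of the lincRNAs and 5.33% of all genes, while 5.92% of the 152 lincRNAs above 0 in both libraries lie past 2-fold in either direction.

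The most abundant lincRNA was RMRP (chromosome 9), the RNA of ribonuclease MRP, which was listed at 74785 FPKM in the RBMS1-depleted library and 69392 FPKM in the control. This made up 97.5% of the summed FPKM of all 175 genes in each library, and the log2 ratio was 0.11. RMRP has 268 bases, shorter than 300, where FPKM values depend strongly on the fragment length, and it has no poly(A) tail. Without RMRP the members summed to 1889 FPKM in the RBMS1-depleted library and 1753 FPKM in the control.

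TERC, the telomerase RNA shown above (ENSG00000270141, 1 exon on the minus strand of chromosome 3), stood at 111 FPKM in the RBMS1-depleted library and 82.0 FPKM in the control, a log2 ratio of 0.44. The intervals that Cufflinks gives within each library, 103 to 120 and 74.97 to 89.0, did not overlap. Such intervals cover uncertainty inside a library only, and they did not overlap for 33.6% of all 10411 genes. A single-exon assembled transcript of 396 bases lay over TERC on the same strand at 249 FPKM in the RBMS1-depleted library and 173 FPKM in the control, which placed both readouts higher in the same library. With it added the TERC log2 ratio was 0.50.

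NORAD, which keeps the genome stable by binding Pumilio proteins, was at 63.9 FPKM in the RBMS1-depleted library and 55.5 FPKM in the control. Its log2 ratio of 0.20 was the same with assembled transcripts added. NORAD is 1 exon of 5339 bases and had no assembled transcript over it in either library. Of the 31-base words of the NORAD transcript, 51.3% occur in genes elsewhere, with 38.0% in OVCH1-AS1, so its value is uncertain.

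NEAT1 (ENSG00000245532, chr11:65422774-65445540, plus strand), the scaffold of paraspeckles, summed to 103 FPKM in the RBMS1-depleted library and 39.9 FPKM in the control, a log2 ratio of 1.34. That sum hides a split between transcripts. The long NEAT1 transcript of 22743 bases, the form on which paraspeckles assemble, was at 32.2 FPKM in the RBMS1-depleted library and 39.9 FPKM in the control. A short 2-exon transcript of 1811 bases at the same 5′ end was at 70.7 FPKM in the RBMS1-depleted library and was listed at 0 in the control. Weighting each transcript by its length, which turns FPKM into fragments scaled by library size alone, gave 861 in the RBMS1-depleted library and 908 in the control, a log2 ratio of -0.08. So the gene was 2-fold higher when FPKM was summed and slightly lower when fragments were, and the long transcript alone had a log2 ratio of -0.30. Whether the control lacks the short transcript or its fragments were given to the long one was not tested.

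MALAT1, a nuclear lincRNA that usually ranks among the most abundant, did not pass the rule. Its reference transcripts were listed at 0 FPKM in both libraries. Its signal stood in 1 single-exon assembled transcript per library, at 857 FPKM in the RBMS1-depleted library and 767 FPKM in the control (intervals 821 to 892 and 735 to 799), a log2 ratio of 0.16. These levels were above those of every member other than RMRP. The assembled transcripts ended 95 and 96 bases before the tRNA-like RNA shown above, and 447 and 448 bases before the end of an annotated transcript of 8708 bases. A transcript of 1589 bases on the opposite strand, absent from GENCODE release 29, was listed inside MALAT1 at 1406 FPKM in the RBMS1-depleted library and 1259 FPKM in the control. Whether the libraries kept the strand is not given in the sources used here, so reads of the 2 strands cannot be told apart.

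**Figure D3:**
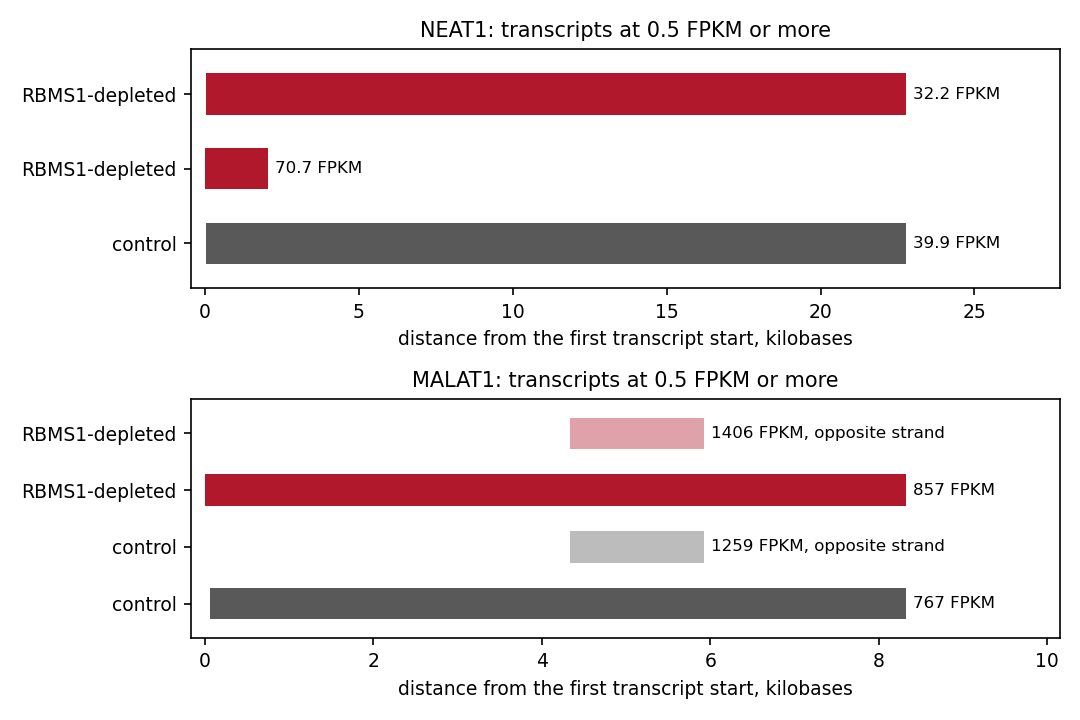
Transcripts at 0.5 FPKM or more at NEAT1 (top) and MALAT1 (bottom), drawn by distance in kilobases from the first transcript start, with red bars for the RBMS1-depleted library, grey bars for the control and pale bars for the opposite strand. The short NEAT1 transcript, at 70.7 FPKM, is drawn for the RBMS1-depleted library only, while MALAT1 has 1 assembled transcript in each library, of 8322 bases at 857 FPKM and 8260 bases at 767 FPKM.

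The proteins that build paraspeckles with NEAT1 were listed for all 16 genes of the list, with a median log2 ratio of 0.06, and 1 stood past 2-fold, where 9.43% of protein-coding genes did. PSPC1, a core paraspeckle protein, was at 16.3 FPKM in the RBMS1-depleted library and 4.93 FPKM in the control, a log2 ratio of 1.55 that became 0.24 with assembled transcripts added. The lowest was DAZAP1, an RNA-binding protein, at 34.6 and 46.2 FPKM, with a log2 ratio of -0.41. Of 13 genes that process tRNAs and the MALAT1 3′ end, 11 reached a mean of 1 FPKM, with a median log2 ratio of -0.05. The highest, the RNase P subunit gene RPP25, was at 4.42 FPKM in the RBMS1-depleted library and listed at 0 in the control, and its log2 ratio of 2.44 became 0.02 with assembled transcripts. The lowest was POP1, shared by RNase P and RNase MRP, at 3.53 and 4.52 FPKM (log2 ratio -0.28).

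The hosts of snoRNAs and of small Cajal-body RNAs, which guide the modification of ribosomal and spliceosomal RNA, numbered 9. None of them was listed at 0 in 1 library, and none stood past 2-fold in this comparison. Of the 152 members above 0 in both libraries 5.92% did, and of all members 18.3%. With so low a share, this is not read as stability of the 9 hosts. Lower in the RBMS1-depleted library were 6 and higher 3, with a median log2 ratio of -0.16. SNHG8, host of SNORA24, was at 158 FPKM in the RBMS1-depleted library and 145 FPKM in the control. SNHG19 was at 27.0 and 32.2 FPKM and SNHG25 at 17.3 and 23.9 FPKM, with log2 ratios of -0.25 and -0.44, and the ratio of SNHG9 was -0.37. SNHG15 (8.60 and 9.55 FPKM) and EPB41L4A-AS1 (6.13 and 5.43 FPKM) differed by 0.15 or less on the log2 scale. The lowest host was LINC02001, with SNORD7 in its body, at 2.13 FPKM in the RBMS1-depleted library and 4.27 FPKM in the control. An intron-sharing assembled transcript at 3.67 FPKM in the RBMS1-depleted library, with none in the control, turned its log2 ratio from -0.75 to 0.37. With assembled transcripts added the median of the 9 hosts was 0.06, so the direction of this group was not the same on both scales.

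In 3 of these hosts a guide RNA lies within the exons. SNORA50C takes 133 of the 278 exon bases of SNHG25. AL356488.2, at 358 FPKM in the RBMS1-depleted library and 400 FPKM in the control (log2 ratio -0.16), has 427 bases, of which 420 are SCARNA2. AC007952.4, at 16.1 and 8.39 FPKM (log2 ratio 0.87), holds the 218 bases of SNORD3D, the U3 snoRNA that acts in ribosomal RNA cleavage. The files list no separate value for any small RNA hosted by a member, so the FPKM of such a host cannot be told apart from that of its small RNA. In AC007952.4, 89.1% of the 31-base words of the transcript also occur in genes elsewhere, mostly SNORD3B-1, so its value is uncertain.

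Nonsense-mediated decay clears many spliced snoRNA host transcripts. Of 14 genes of that pathway, 1 stood past 2-fold, where 9.43% of protein-coding genes did, and the median log2 ratio was -0.07. That gene, SMG8, was listed at 0 in the RBMS1-depleted library and at 6.54 FPKM in the control, a log2 ratio of -2.91. The highest was the kinase SMG1, at 10.4 and 6.16 FPKM, whose log2 ratio of 0.67 became -0.05 with assembled transcripts added. The nuclear exosome and its adaptors degrade many noncoding transcripts. Of their 19 expressed genes none stood past 2-fold, where 9.43% of protein-coding genes did, and the log2 ratios ran from -0.29 for C1D to 0.39 for EXOSC1. With assembled transcripts added both turned sign, to 0.46 and -0.25.

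The miRNA hosts numbered 8, with a median log2 ratio of 0.07. MIR22HG, host of miR-22, was at 3.87 FPKM in the RBMS1-depleted library and 7.94 FPKM in the control, a log2 ratio of -0.88, with the miR-22 hairpin inside an exon. On the other scales it stayed lower in the RBMS1-depleted library, at -0.70 with assembled transcripts added and -0.65 by length-weighted fragments. The difference was smaller with assembled transcripts weighted by length (-0.46) and by its highest reference transcript alone (-0.17). MIR4458HG was at 4.54 and 4.52 FPKM, MIR137HG at 1.15 and 1.56 FPKM, and MUC20-OT1, which holds MIR570, at 2.00 and 2.59 FPKM. The log2 ratios of these 3 lay between -0.26 and 0.01.

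CYTOR was at 251 FPKM in the RBMS1-depleted library and 229 FPKM in the control, and MIR4435-2HG at 157 and 130 FPKM. The 2 genes are near copies on chromosome 2 and encode the same miR-4435. Of the 31-base words of the CYTOR transcript, 68.1% occur in MIR4435-2HG, so the authors' counting could split reads between them and each value is uncertain. AC017002.1, which lies inside MIR4435-2HG on the same strand and shares 79.2% of its words with CYTOR, was at 19.7 FPKM in the RBMS1-depleted library and 3.27 FPKM in the control, a log2 ratio of 2.27. In the control, single-exon assembled transcripts over it added 36.1 FPKM, which turned its log2 ratio to -0.97.

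LINC-PINT, a p53-induced lincRNA an exon of which holds the miR-29b hairpin shown above, was at 5.95 FPKM in the RBMS1-depleted library and was listed at 0 in the control. Long assembled transcripts lay there in both libraries. Single-exon ones that overlapped an exon were at 6.06 FPKM in the RBMS1-depleted library and 5.99 FPKM in the control. With assembled transcripts added the log2 ratio moved from 2.80 to 0.90. By length-weighted fragments it was 5.29 for reference transcripts and -0.50 with assembled ones added.

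For lncRNAs with a textbook role 55 symbols were looked for, some of them older names of a gene also listed, and 14 were members. Of these, 3 (21.4%, against 18.3% of all members) stood past 2-fold, all higher: NEAT1, LINC-PINT and UCA1. UCA1 (ENSG00000214049, chr19:15828206-15836326, plus strand), first described in bladder cancer, was at 11.1 FPKM in the RBMS1-depleted library and 4.71 FPKM in the control, or 1.08 on the log2 scale. An assembled transcript that shared an intron with UCA1 was listed at 20.1 FPKM in the control and had no counterpart in the RBMS1-depleted library. Adding it gave 11.1 and 24.8 FPKM, a log2 ratio of -1.10, so the direction for UCA1 depended on whether it was counted. CRNDE, raised in colorectal tumours, was at 13.1 and 10.5 FPKM, and LINP1, which acts in DNA end joining, at 1.59 and 1.09 FPKM. Both had log2 ratios of 0.30 to 0.31.

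The lower members were few. The 8 lowest ratios among genes above 0 in both libraries with a mean of 2 FPKM or more were LINC00702, AP006621.3, LINC00973, MIR22HG, LINC00623, AC084033.3, LINC02001 and AC145207.5. Only LINC00702 of these stood past 2-fold, at 0.229 FPKM in the RBMS1-depleted library and 5.08 FPKM in the control, a log2 ratio of -2.31 that was -1.72 with assembled transcripts added and -0.38 when these were weighted by length. LINC00973 was at 8.79 FPKM in the RBMS1-depleted library and 17.1 FPKM in the control. It had no assembled transcript over it, and its log2 ratio was -0.89 by reference transcripts and by length-weighted fragments, -1.09 by TPM, and -0.68 with a pseudocount of 5 FPKM.

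AP006621.3 stood at 3.56 and 7.63 FPKM, with a log2 ratio of -0.92 that was -0.28 by length-weighted fragments and -2.64 by its highest transcript. AC084033.3 was at 3.98 and 7.56 FPKM, and its log2 ratio of -0.78 became -0.31 with assembled transcripts added. LINC00623 was at 1.91 and 4.26 FPKM, but 89.1% of its words occur in a pseudogene copy, LINC00869. AC145207.5 stood at 2.16 and 3.67 FPKM, with a log2 ratio of -0.57.

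The members listed at 0 in the RBMS1-depleted library with the highest control values were AC087741.2 at 67.8 FPKM, AC010343.3 at 7.86 FPKM and GLIDR at 5.55 FPKM. AC087741.2 has 172 bases and a within-library interval of 0 to 204 FPKM in the control, and no other transcript covered it in the RBMS1-depleted library. Over AC010343.3 an assembled transcript of 3 exons at 3.37 FPKM covered all 394 bases in the library where the gene was listed at 0. GLIDR was covered over 90.0% of its 279 bases by an assembled transcript at 1.19 FPKM, and 89.6% of the words of its annotated transcript occur in genes elsewhere.

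The 8 highest ratios among genes above 0 in both libraries with a mean of 2 FPKM or more included NEAT1, AC017002.1 and UCA1. The others were AC005256.1, APTR, AC006058.1, LINC01001 and AL713998.1. AC005256.1 was at 6.34 FPKM in the RBMS1-depleted library and 0.857 FPKM in the control, with 272 bases and no assembled transcript over it. APTR, a repressor of the p21 gene, stood at 3.70 and 0.460 FPKM, with a log2 ratio of 1.69 that became -0.29 with the 4.30 FPKM of an intron-sharing assembled transcript in the control. AC006058.1, at 5.58 and 1.64 FPKM, went from 1.32 to 0.20 with a single-exon assembled transcript at 3.10 FPKM in the control. LINC01001, at 7.45 and 2.50 FPKM, went from 1.27 to 0.66 with assembled transcripts added, and 88.9% of its words occur in other genes.

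AL713998.1 was at 5.02 FPKM in the RBMS1-depleted library and 2.05 FPKM in the control, a log2 ratio of 0.98. Intron-sharing assembled transcripts of this gene were also higher in the RBMS1-depleted library, at 4.24 against 1.51 FPKM, which gave 1.17 with them added. Of these 8 ratios it was the only one that was higher with assembled transcripts added.

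The members listed at 0 in the control with the highest values in the RBMS1-depleted library were AC015813.4 at 39.5 FPKM, AC015922.3 at 6.94 FPKM and LINC-PINT. AC015813.4 has 179 bases and an interval of 0 to 119 FPKM in the RBMS1-depleted library, and no other transcript lay over it in the control. Over AC015922.3 a single-exon assembled transcript at 5.05 FPKM covered 94.8% of the bases in the control, and its log2 ratio of 2.99 became 0.39 with that transcript added.

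Across the 23 genes listed at 0 in 1 library, the exons of the highest reference transcript were checked for cover. In that library 14 genes had another transcript on the same strand over these exons, and in 13 it covered at least 50% of the bases. Of the other 9, AC005695.3, AC015813.4, AC092168.1 and AC087741.2 had fewer than 300 bases. AC090833.1, also among the 9, had a single-exon assembled transcript in the control over an exon outside its highest reference transcript. With assembled transcripts added 14 of the 23 stayed past 2-fold, 6 of them among the 13 covered genes. Among these 6, the covering transcripts of AC010343.3, AP005233.2, AL390728.6 and AL512598.1 were not assigned to the gene, so nothing was added. AP005233.2, at 4.98 FPKM in the control, was covered over 97.8% in the RBMS1-depleted library by a transcript at 7.51 FPKM. For these genes staying past 2-fold therefore says nothing about the covering transcripts. A value of 0 is not read here as absence of the RNA.

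When assembled transcripts were added, 18 of the 32 differences stayed past 2-fold in the same direction, 7 of 9 lower and 11 of 23 higher. Of these 18, only GLIDR, LINC00702 and LINC00484 had assembled transcripts assigned to them, so the ratios of the others could not move. Those 18 were 10.3% of the members, against 4.15% of all genes, but 14 of them were listed at 0 in 1 library. Among genes above 0 in both libraries 4 of 152 members (2.63%) stayed, against 1.79% of all genes. The sign turned for 4 genes, UCA1, APTR, AC017002.1 and LINC00342. On the reference scale, with assembled transcripts and on both length-weighted scales, 11 stayed past 2-fold (all genes 3.2%), 10 of them listed at 0 in 1 library and so forced past 2-fold on the reference scale by the rule. Among genes above 0 in both libraries 1 of 152 members stayed, AC005256.1 (0.658%), against 1.23% of all genes. No assembled transcript was assigned to any of the 11, so adding them could not change these ratios.

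Of these 11, 8 were above 0 in both libraries or had no other transcript over at least 50% of their bases where listed at 0, and 4 of the 8 had 300 bases or more. These 4, chosen after their values were seen, were LINC02603 (4.70 FPKM in the RBMS1-depleted library), LINC01006 (4.18 FPKM) and AL356056.1 (3.75 FPKM), each listed at 0 in the control, and AC025171.4, listed at 0 in the RBMS1-depleted library and at 2.08 FPKM in the control. In the introns of LINC01006 lay 25 unspliced pieces in the RBMS1-depleted library and 11 in the control, at near-equal medians of 0.386 and 0.329 FPKM.

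**Figure D4:**
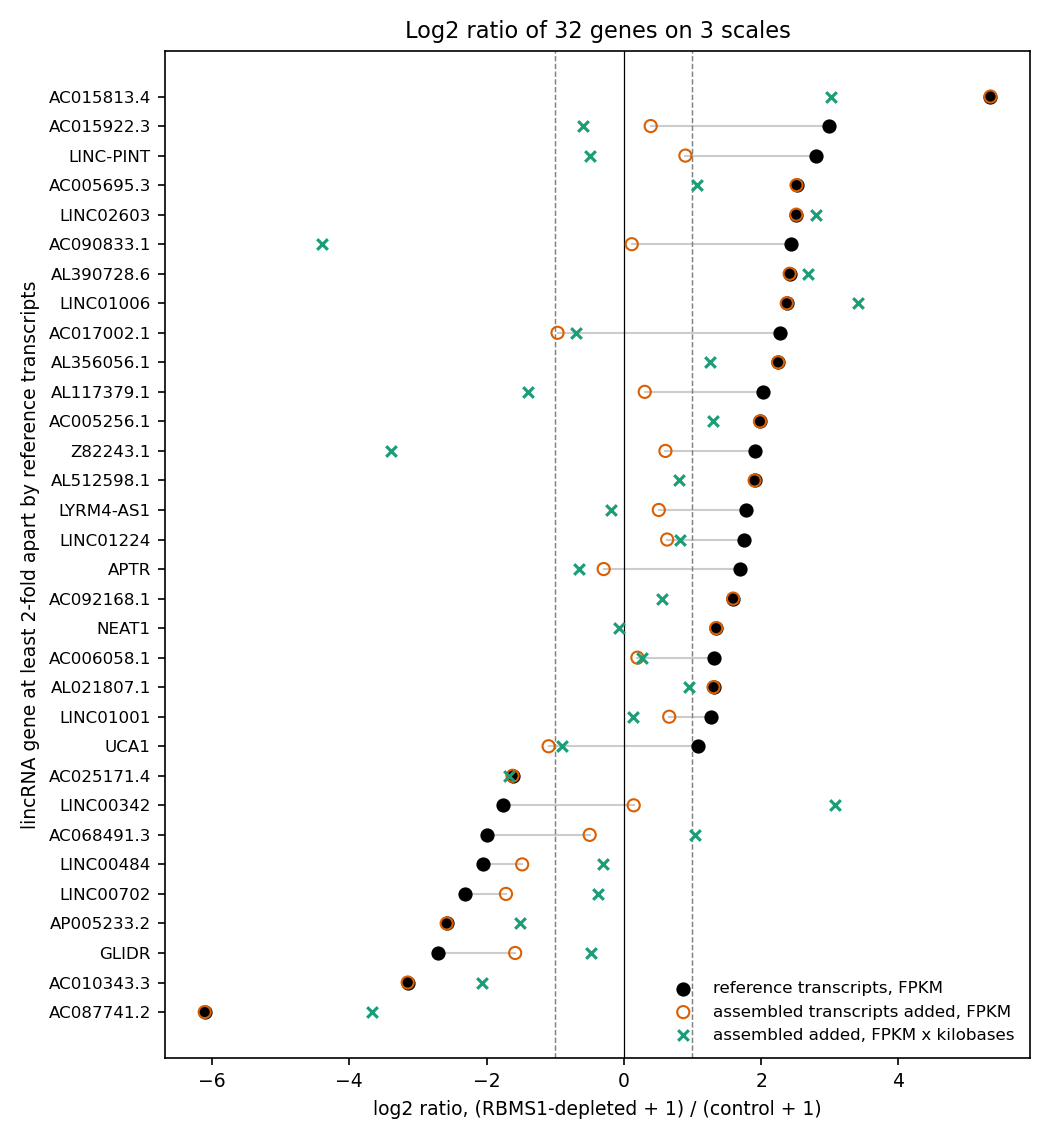
Log2 ratio of the 32 lincRNA genes past 2-fold by reference transcripts (black), with assembled transcripts added (open orange) and with those weighted by length in kilobases (green cross), each plus 1, with dashed lines at 2-fold. Where the open circle sits on the black point, no assembled transcript was added, and 18 of the 32 genes stay past 2-fold in the same direction with assembled transcripts added.

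Single-exon assembled transcripts, which are unspliced pieces built from the reads, made up 88.1% of 60329 assembled transcripts in the RBMS1-depleted library and 88.8% of 64210 in the control. Over an exon of a member on the same strand lay 26 of them in the RBMS1-depleted library and 37 in the control, none without a strand. They touched 19 and 28 members, 38 in all, and 9 members had them in both libraries. In 8 members in the RBMS1-depleted library and in 12 in the control their FPKM exceeded that of the reference transcripts.

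For the 9 members with such pieces in both libraries the median log2 ratio of the pieces was 0.02. The largest values stood over TERC, and the next over AC245014.3, at 27.2 FPKM in the RBMS1-depleted library and 11.1 FPKM in the control. SNHG19 had 10.0 and 3.29 FPKM of pieces, higher in the RBMS1-depleted library although its reference transcripts were lower there.

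Unspliced pieces also lay wholly inside introns of 41 members, 292 pieces in the RBMS1-depleted library and 326 in the control. Of 10 members with 10 or more pieces over both libraries, 4 had a lower median piece FPKM in the RBMS1-depleted library and 6 a higher one. By the pieces' summed fragments, scaled by library size, only LINC01006, C2orf48 and MUC20-OT1 of the 10 were higher there. The members had no common direction, and the balance depended on the measure.

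AC090833.1 (chr11:28702615-29063821, plus strand), a gene body of 361207 bases, held the most, 89 pieces in the RBMS1-depleted library and 101 in the control. They covered 191691 and 186004 bases at length-weighted means of 2.78 and 4.58 FPKM. The median piece was lower in the RBMS1-depleted library in each 100-kilobase stretch from the gene start, at 3.24 against 5.89 FPKM in the first stretch, 2.64 against 4.95 in the second, 1.87 against 2.88 in the third and 0.892 against 1.92 in the fourth, where the RBMS1-depleted library had 4 pieces. Piece levels declined with distance from the start in both libraries. The spliced reference transcripts were at 4.42 FPKM in the RBMS1-depleted library and 0 in the control. A single-exon assembled transcript over an exon at 4.002 FPKM in the control took that log2 ratio from 2.44 to 0.12, and to -4.40 weighted by length. Neighbouring pieces share their reads' source and are not replicates.

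**Figure D5:**
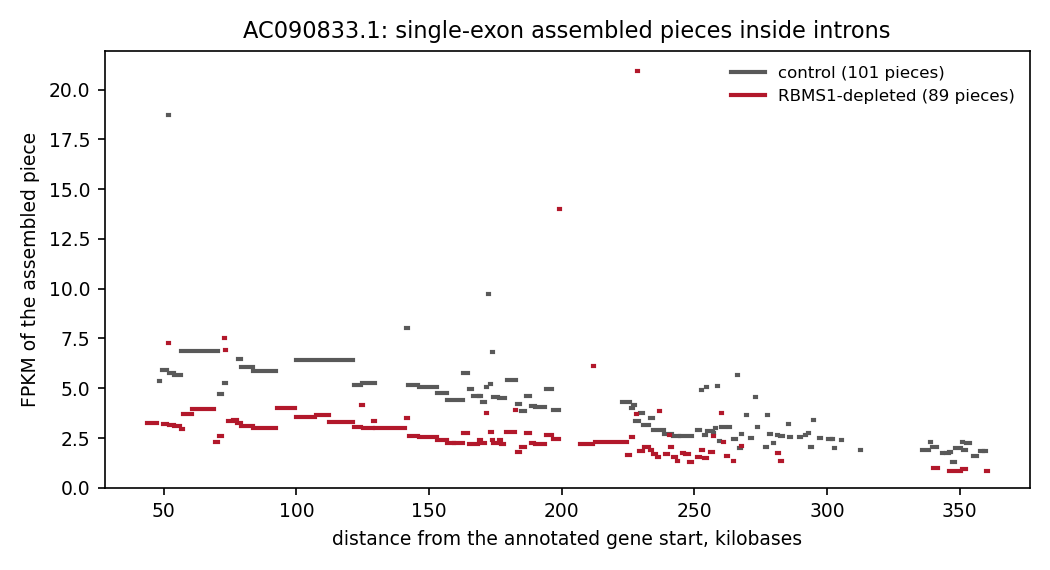
FPKM of each single-exon assembled piece inside introns of AC090833.1 (vertical) against its distance from the annotated gene start in kilobases (horizontal), with each piece drawn over its own length, grey for the control (101 pieces) and red for the RBMS1-depleted library (89 pieces). The median piece is lower in the RBMS1-depleted library in each 100-kilobase stretch, from 3.24 against 5.89 FPKM in the first to 0.892 against 1.92 in the fourth.

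In MIR4435-2HG, 49 intronic pieces in the RBMS1-depleted library had a median of 2.09 FPKM and 59 in the control a median of 3.33 FPKM. The control also held a piece of 165 bases at 1880 FPKM in this gene, where the highest piece of the RBMS1-depleted library was at 26.2 FPKM. LINC01184 had 7 pieces in the RBMS1-depleted library, with a median of 1.26 FPKM, and 36 in the control, with a median of 0.872 FPKM, and its reference transcripts were alike, at 7.07 and 6.397 FPKM.

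Members that start within 2000 bases of a protein-coding gene on the opposite strand numbered 34. Of these, 4 stood past 2-fold (11.8%), against 28 of the 141 others (19.9%), and the medians were 0.08 and 0.03. None of the 29 expressed protein-coding neighbours stood past 2-fold, where 9.43% of all protein-coding genes did. AC015813.4, at 39.5 FPKM against 0, starts 642 bases from CUEDC1, which was at 6.86 and 7.24 FPKM. AP006621.3 starts 90 bases from GATD1, which was at 8.97 and 8.13 FPKM, and MIR22HG 651 bases from WDR81, at 0.608 and 0.689 FPKM. AP002360.1, at 4.74 and 6.997 FPKM, and its neighbour EMSY, at 3.86 and 6.62 FPKM, were both lower in the RBMS1-depleted library.

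By structure, 66 members had a single exon in their highest reference transcript and 109 were spliced, with medians of 0.08 and 0.03. Past 2-fold stood 21.2% of the former and 16.5% of the latter. Of the 12 members under 300 bases 7 stood past 2-fold, and 25 of the 163 others (15.3%). The median transcript had 770 bases, against 2819 for expressed protein-coding genes. In 21 members at least 50% of the 31-base words occurred in genes elsewhere, and 3 of these stood past 2-fold (14.3%), against 29 of the 154 others (18.8%).

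RBMS1 binds AU-rich stretches, and the letters ATATA, counted on the transcript strand with overlaps, were found in 79 of the 175 lincRNA transcripts (45.1%) and in 67.1% of the longer protein-coding transcripts. Per kilobase they occurred 1.18 and 1.05 times. Among transcripts of 500 to 1500 bases 42.2% of the lincRNAs and 39.1% of the protein-coding genes held the letters. They were present in 4 of the 9 lower members, 11 of the 23 higher members and 64 of the 143 others (44.8%). NEAT1 held the most, 45 copies in 22743 bases, and NORAD 17 copies. A match is a description of letters and not a binding site.

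Of the remaining abundant members, AC126768.3 was at 21.9 FPKM in the RBMS1-depleted library and 24.6 FPKM in the control, a log2 ratio of -0.16. Its words occur in part (47.7%) in other genes, among them OR4F17.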

How the data were processed

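RNA-seq libraries of MDA-MB-231 cells were analysed, 1 per group, grouped by their labels. Per the labels' processing notes, Bowtie2 2.0.6, TopHat2 2.0.9, Cufflinks 2.1.1 and Cuffdiff 2.1.1 were used, with no build named. The authors deposited, per library, assembled and reference transcripts with Cufflinks FPKM and within-library bounds. Of reference transcripts, 98.1% start where GENCODE release 29 (GRCh38) places them, and exon lengths were taken from the files. The authors' table of differential transcripts holds their own fold changes and p-values and was not used.

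FPKM was summed over the Ensembl transcripts of each gene. Ratios were log2((RBMS1-depleted + 1)/(control + 1)), called at 2-fold, with no test. Assembled transcripts were assigned to a gene by a shared intron or, with 1 exon, by overlap with an exon on the same strand. Hosts hold a small RNA gene in their body on the same strand. Copies were sought as 31-base words shared with transcripts of genes elsewhere. Transcript sequences came from GENCODE release 29, whose exons are those of the files for 97.0% of transcripts, with exceptions among the members that include UCA1, GLIDR and LINP1.

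Named genes were MALAT1, NEAT1 and RBMS1, the 12 members with the highest mean, the 8 lowest and 8 highest ratios among members above 0 in both libraries with a mean of 2 FPKM or more, members of a list of textbook lncRNAs, the 3 highest among those listed at 0 in each library, the genes at the threshold, and the extremes of each protein gene list. Other genes named as hosts, neighbours or carriers of assembled pieces were chosen after their values were seen. The members and lists were chosen with earlier results of these data known. Alternatives covered the pseudocount, scaling, filters, assembled transcripts and, added after seeing the data, length weighting and short transcripts. Code was tested on simulated data (Python 3.11.15, pandas 2.3.3, numpy 2.4.6).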

Additional observations from a re-analysis of the deposited data

How the results depend on the processing

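No paired analysis was possible because each group holds only 1 library, nor could a replicate be left out, and with no read counts the depth limits of low values cannot be stated. The count of 32 members past 2-fold (9 lower, 23 higher) became 50 (16 lower) with a pseudocount of 0.1 FPKM, 8 (3 lower, 5 higher) with 5 FPKM, 5 of 45 (1 lower, 4 higher) at a mean of 5 FPKM or more, 57 of 1840 (24 lower) with no filter and 9 of 152 (1 lower, 8 higher) above 0 in both libraries. TPM over reference transcripts, which moved the median of all genes from 0.02 to -0.13, gave 17 lower and 26 higher, with 716 lower and 539 higher of all genes against 509 and 555 by FPKM. With all assembled transcripts added 14 were higher, and with these weighted by length 20 (11 higher). All other settings kept these counts within 1.5 times. With reference transcripts alone all 10411 genes gave 1064 past 2-fold, with assembled transcripts added 531, and with those weighted by length 486.

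The median log2 ratio of the members was -0.086 under TPM and within 0.1 of 0.03 otherwise. For snoRNA hosts it moved from -0.16 to -0.33 (TPM), 0.0032 (intron-sharing assembled), 0.058 (all assembled) and -0.045 (no filter). For miRNA hosts it moved from 0.07 to -0.095 (TPM), -0.12 (highest reference transcript only), -0.068 (assembled, weighted by length) and 0.20 (mean of 5 FPKM or more). RBMS1 was at -1.73 with a pseudocount of 5 FPKM. NEAT1 was at 1.19 under TPM, -0.30 by its highest reference transcript and -0.077 by both length-weighted sums.

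Length weighting and the restriction to 300 bases or more were chosen after seeing the data. Of 36 other named lincRNAs, 12 turned sign under at least 1 alternative. In 7 of them (LINC02001, CRNDE, SNHG19, SNHG15, SNHG8, CYTOR and RMRP) the main value was under 2-fold, and 5 were past it. UCA1 was at -1.10 with intron-sharing and with all assembled transcripts, and -0.90 weighted by length. APTR was at -0.29, -0.29 and -0.65, and AC017002.1 at -0.97 with all assembled transcripts and -0.69 weighted by length. AC015922.3 and LINC-PINT were at -0.60 and -0.50 weighted by length with assembled transcripts. For these 5 the added transcripts differ between the libraries, and the cause was not tested. MALAT1 was at 0.16 with all assembled transcripts and 0.17 weighted by length.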

Other observations

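Like MALAT1, other lincRNA genes under a mean of 1 FPKM by reference transcripts had single-exon assembled transcripts over an exon on the same strand with a mean of 1 FPKM or more. With MALAT1 there were 48 such genes, chosen after the values were seen, 36 of them with such transcripts in both libraries and a median log2 ratio of -0.0041 for these. Next after MALAT1 stood AL161431.1, at 69.8 FPKM in the RBMS1-depleted library and 111 FPKM in the control, a log2 ratio of -0.66. AC012313.1 was at 5.78 and 4.02 FPKM, and MGC12916 at 5.02 and 3.62 FPKM. Past 2-fold were 10 higher and 6 lower, of which 12 had such a transcript in 1 library only and were forced past 2-fold by the selection. Of the 36 with values in both libraries 4 stood past 2-fold. By reference transcripts 5.67% of all genes above 0 in both libraries did. No such share was computed for the single-exon transcripts of all genes, so these counts cannot be judged against a like background.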
